A study of Mus musculus with 9 samples.

Results

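Immunoprecipitation of RNA with a nonspecific antibody measures the RNA that beads and immunoglobulin carry over from a lysate without a chosen target, and it is the background against which a specific precipitate is read. Here this background was described from 3 libraries of RNA that rabbit IgG on protein G magnetic beads retained (IgG precipitate) and 3 libraries of the lysate before precipitation (input). These 6 of the 9 libraries of the series were chosen by their labels, and the other 3, precipitated with an antibody to phosphorylated UPF1 (p-UPF1), enter only where they are named. All 9 came from wild-type mouse spleen B cells negative for CD43, kept for 72 h with CD40L at 5 ug/mL, anti-IgM at 10 ug/mL and IL-4 at 20 ng/mL (the study's methods name an antibody to CD40 in place of CD40L), so the activated state is shared by both groups. Mice of the study were 8 to 16 weeks old and of both sexes, and the number of mice behind these libraries is not given in the sources used here. The methods call the data points of the graphs independent biological replicates, without saying whether the 3 libraries of a group came from separate cultures or animals, so p-values measure the spread between these libraries alone.

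Of 27179 genes in the table, 12700 had enough counts to be tested. The libraries held 17372510, 18550508 and 18433843 counts for IgG A, B and C and 24945286, 20328526 and 19873687 counts for input A, B and C, where the letters only name libraries and pair none. Levels are given as counts per 1000000 counted reads (CPM), and differences as the log2 fold change of IgG over input with its standard error (SE) from edgeR's quasi-likelihood test. Each library is scaled to its own total times edgeR's TMM factor, which lay between 0.995 and 1.01. Means and sums of cell type markers use the total alone. A higher or lower value therefore means a gain or loss relative to the other RNAs of the library, and the amount of RNA the beads retained was not measured. The B cell marker Cd79b was high in the input, at 1209 CPM, whereas the neutrophil markers S100a8 and Elane had no counts there and the T cell receptor subunits Cd3e, Cd3d and Cd3g were at 0.193, 0.103 and 0.303 CPM. Not all markers of other cells were low, as the macrophage marker Adgre1 was at 129 CPM and the T cell marker Lck at 97.8 CPM in the input. Csf1r, which macrophages also carry, was at 0.0301 CPM. IgG A stood apart from B and C (Pearson r of the log2 ratio to input 0.88 with each, against 0.92 between B and C), and results without it are given with the replicate spread.

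Small nucleolar RNAs (snoRNAs) are short RNAs of the nucleolus that guide the chemical modification of ribosomal and spliceosomal RNA. C/D snoRNAs guide 2'-O-methylation and H/ACA snoRNAs guide pseudouridylation, and most are cut from introns of host genes, many of which encode ribosomal proteins or yield lncRNAs. Long noncoding RNAs such as Xist, Neat1 and Malat1 stay in the nucleus, whereas mRNAs of ribosomal proteins, of the respiratory chain and of immunoglobulins are among the abundant cytoplasmic messages of an activated B cell.

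The 6 snoRNAs with the highest mean CPM among those that passed the test are shown first, since they carry the change with the most reads, followed by a C/D snoRNA that did not pass and by Bc1, a short RNA that fell. Sequences run 5' to 3' along the transcribed strand and are from the RefSeq GRCm38 genome, the same assembly as the mm10 build of the counts. Capitals mark TGATGA in the first 20 bases and CTGA in the last 15 bases of C/D snoRNAs, the cores of the C and D boxes, and ACA in the last 6 bases of H/ACA snoRNAs. Snord22 lies in an intron of Snhg1 at chr19:8725866-8725991 (plus strand), Snord47 in an intron of Gas5 at chr1:161038092-161038156 (plus strand), Snord12 in Zfas1 at chr2:167065293-167065358 (plus strand) and Snord100 in Rps12 at chr10:23785754-23785821 (minus strand). The H/ACA RNAs Snora73a and Snora70 lie in Snhg3 at chr4:132352775-132352979 (minus strand) and in Rpl10 at chrX:74272492-74272620 (plus strand).
Snord22: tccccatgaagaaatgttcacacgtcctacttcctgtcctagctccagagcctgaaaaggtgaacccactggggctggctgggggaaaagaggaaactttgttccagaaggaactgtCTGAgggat
Snord47: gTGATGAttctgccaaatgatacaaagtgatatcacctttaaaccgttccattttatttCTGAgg
Snord12: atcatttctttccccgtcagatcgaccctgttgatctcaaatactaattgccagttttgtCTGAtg
Snord100: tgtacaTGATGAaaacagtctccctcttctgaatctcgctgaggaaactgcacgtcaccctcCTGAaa
Snora73a: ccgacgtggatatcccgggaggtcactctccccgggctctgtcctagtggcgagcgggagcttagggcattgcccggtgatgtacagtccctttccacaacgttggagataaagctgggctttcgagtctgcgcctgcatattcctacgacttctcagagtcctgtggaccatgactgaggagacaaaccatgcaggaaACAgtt
Snora70: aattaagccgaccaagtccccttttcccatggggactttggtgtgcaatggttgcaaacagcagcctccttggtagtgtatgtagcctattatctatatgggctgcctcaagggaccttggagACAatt
Snord104 at chr11:106500991-106501063 (plus strand) and Bc1 at chr7:144914470-144914623 (plus strand) are the comparison.
Snord104: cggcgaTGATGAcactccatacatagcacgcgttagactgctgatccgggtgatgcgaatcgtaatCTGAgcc
Bc1: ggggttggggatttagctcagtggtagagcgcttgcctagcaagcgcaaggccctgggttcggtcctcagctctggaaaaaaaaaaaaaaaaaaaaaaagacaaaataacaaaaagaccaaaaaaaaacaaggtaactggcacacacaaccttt
On the transcribed strand, CTGA was found in the last 15 bases of 42 of the 42 tested C/D snoRNAs and of 7.48% of 25201 annotated genes. TGATGA was found in the first 20 bases of 17 of the 42, against 0.488% of annotated genes. ACA was found in the last 6 bases of 19 of the 21 tested H/ACA snoRNAs, against 8.75% of annotated genes.

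Over all tested genes, 3178 were higher and 3040 lower in the IgG precipitate than in the input at an adjusted P under 0.05, which is 25% and 23.9% of the genes, and the median log2 fold change was 0.0045. When a log2 change of 1 or more was also asked for, 313 genes (2.46%) were higher and 162 (1.28%) were lower. A test against that minimum itself, edgeR's glmTreat, called 80 higher and 13 lower. Other scalings of the same genes called 2737 to 3244 higher and 2962 to 3506 lower. A fit of all 9 libraries, in which the tested genes, the estimate of the spread and the scaling all differ, called 2390 higher and 4560 lower, 284 of them by a log2 change of 1 or more, with a median over all genes of -0.10. Pearson correlations of log2 CPM lay between 0.973 and 0.980 over the 9 pairs of an IgG and an input library.

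**Figure D1:**
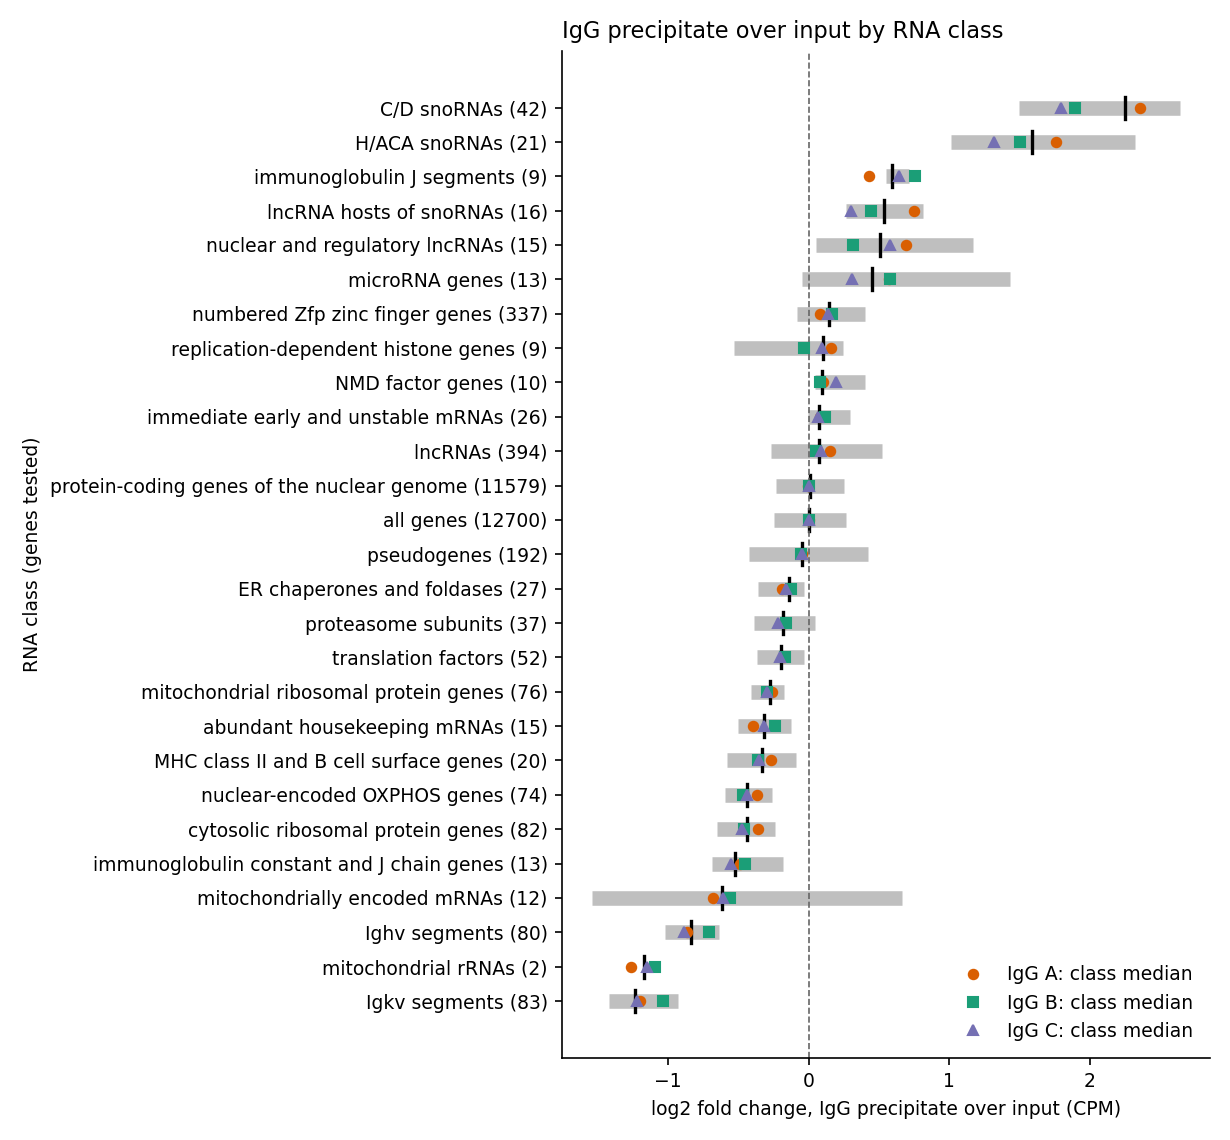
Log2 fold change of IgG precipitate over input for 26 RNA classes and all genes, with the number of genes tested in parentheses. Grey bars span the middle quartiles, black ticks are the fitted medians and coloured points are the class medians of each IgG library against the mean of the input libraries; C/D snoRNAs sit highest (2.25) and Igkv segments lowest (-1.24).

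snoRNAs had the highest median of the classes examined. Of 124 listed in the table, 64 had enough counts, and 57 of these were higher and 0 lower in the IgG precipitate, and 54 were higher by a log2 change of 1 or more, against 25% and 2.46% of all genes. Since a low-count snoRNA can pass the minimum through the IgG libraries alone, the count was repeated over the 38 that passed it in the input libraries: 37 were higher and 0 lower, with a median of 2.03. The median log2 fold change was 2.25 for the 42 C/D snoRNAs and 1.59 for the 21 H/ACA snoRNAs, beside 0.0045 for all genes, and 2.14 and 1.68 over the 20 and 18 of these that passed the minimum in the input libraries. In share of all counts snoRNAs remained rare, at 0.0331% ± 0.0064 of IgG counts and 0.00790% ± 0.00041 of input counts (SD, n = 3 libraries each). The libraries were selected for polyA RNA by their labels, a step that the methods for these libraries do not name. With that selection, the level of these RNAs, which lack a polyA tail, is not their level in the cell. Counts per gene also cannot tell a mature snoRNA apart from unspliced host RNA that covers it.

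Snord22 had the largest rise of the class. It was at 39.2, 33.8 and 29.0 CPM in IgG A, B and C and at 4.10, 2.62 and 3.28 CPM in the input libraries, a log2 fold change of 3.33 (SE 0.16, edgeR adjusted P = 2.63e-08). Snora73a, also called U17, which takes part in the cutting of the ribosomal RNA precursor, was at 20.3, 20.6 and 17.7 CPM in IgG and 4.58, 4.25 and 3.74 CPM in input. In both the groups did not overlap. Snord47 was at 17.7, 15.5 and 15.2 CPM in IgG and between 2.09 and 2.48 CPM in input. Snord104 differed from these, with 7.74, 5.72 and 2.99 CPM in IgG and 4.46, 3.71 and 4.44 CPM in input (log2 fold change 0.38, SE 0.28, edgeR adjusted P = 0.287), so that its groups overlapped. Another 6 tested snoRNAs did not pass the test, namely Snord14d, Snora74a, Snord95, Snord17, Snora5c and Snora34, with mean levels near or below 1 CPM.

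Intronic snoRNAs changed more than the genes that hold them. For 62 snoRNAs in 44 tested host genes, the log2 fold change of the snoRNA was above that of its host in 62 of 62 pairs, by a median of 1.96; the pairs share hosts and the differences were not tested one by one. Since some of these snoRNAs passed the count minimum through the IgG libraries alone, the count was repeated, as a choice made after seeing the data, over the 36 that passed it in the input libraries, and it was 36 of 36, by a median of 1.92. The median of the hosts was -0.08, with 13 higher, 22 lower and 9 that did not pass, beside 25% higher and 23.9% lower among all genes. Of the 22 lower hosts 17 were among the 21 ribosomal protein genes. Rpl13a, a ribosomal protein gene, had 1241, 1167 and 1161 CPM in IgG and 1177, 1190 and 1167 CPM in input, a log2 fold change of 0.014, whereas Snord32a, the 1 of its 4 tested snoRNAs that passed the minimum in the input libraries, had 2.53. Rpl13 fell by 1.09 while Snord68 in it rose by 1.53. Of the 10 lncRNA hosts, 7 were higher, 1 was lower and 2 did not pass, with a median of 0.44. Snhg1 rose by 1.20 and Gas5 by 1.43, and both were exceeded by Snord22 and Snord47 with 3.33 and 2.78. The lower host, 2410006H16Rik, was at -0.26, and Snord49a in it was at 2.40.

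**Figure D2:**
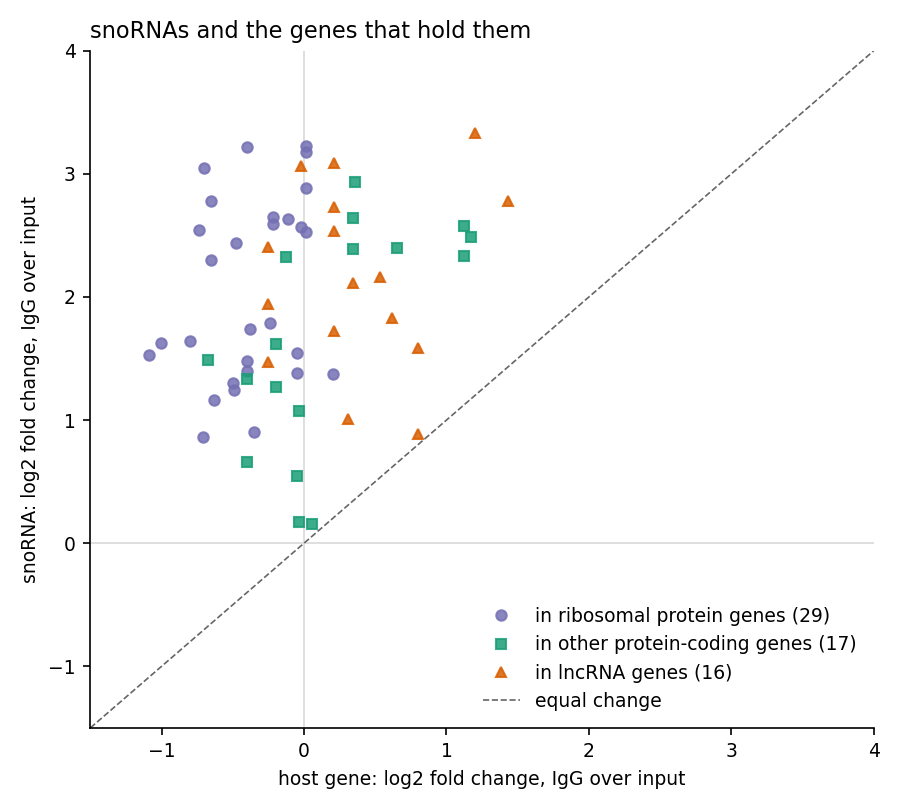
Log2 fold change of IgG over input of 62 snoRNAs (vertical axis) against that of their host gene (horizontal axis), by kind of host, with equal change as a dashed line. Each point lies above the line; hosts spread around 0 and snoRNAs around 2.03.

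Other short noncoding RNAs were fewer and differed in direction. Rn7sk, the RNA that holds the elongation kinase P-TEFb inactive, was at 2.85, 3.51 and 4.08 CPM in IgG and 0.723, 0.099 and 0.303 CPM in input (log2 fold change 3.12, SE 0.44). It was tested through its counts in IgG and stayed under the minimum of 0.521 CPM in all but 1 input library, so that the size of this fold is uncertain. Rpph1, the RNA of ribonuclease P, was at 1.08, 0.647 and 1.63 CPM in IgG and 0.321, 0.346 and 0.152 CPM in input, where it did not reach that minimum. Of 13 microRNA genes tested, 6 were higher and 1 lower, beside 25% and 23.9% of all genes, with a median of 0.45. Of the 9 that passed the minimum in the input libraries, 3 were higher and 1 was lower, a share higher near that of all genes, and the median was 0.05. The median of the 13, less that of all genes, was 0.27 without IgG A and 1.43 without genes whose exons overlap another gene. Reads on these genes can belong to the host transcript. Bc1, a short RNA made by RNA polymerase III, went the other way, with 8.31, 15.2 and 18.9 CPM in IgG and 51.1, 61.7 and 55.4 CPM in input, 3.94-fold lower (edgeR adjusted P = 5.45e-06).

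Among lncRNAs, snoRNA hosts and a list of nuclear and regulatory RNAs had higher medians than lncRNAs as a whole. Of 394 lncRNAs tested, 72 were higher (18.3%) and 31 lower (7.87%), both below the shares of all genes (25% and 23.9%), with a median of 0.07. Of 16 lncRNA hosts of snoRNAs in the gene list used, 12 were higher and 0 lower, with a median of 0.53. That list is partial. Of the 10 lncRNA genes whose span holds a tested snoRNA, 7 were higher and 1 was lower. The lower one, 2410006H16Rik, is not in the list (log2 fold change -0.26, edgeR adjusted P = 0.0040). Gas5, whose RNA carries many C/D snoRNAs in its introns, had 1285, 1058 and 1015 CPM in IgG and 434, 415 and 397 CPM in input (log2 fold change 1.43, SE 0.07, edgeR adjusted P = 5.21e-08). Of 15 nuclear and regulatory lncRNAs, 10 were higher and 1 lower, with a median of 0.51. Norad, which binds PUMILIO proteins in the cytoplasm, was at 225, 345 and 370 CPM in IgG and 82.6, 85.2 and 83.8 CPM in input, a 3.74-fold rise. Neat1, the scaffold of paraspeckles, was at 607, 524 and 508 CPM in IgG and 262, 241 and 241 CPM in input. Malat1, an abundant RNA of nuclear speckles, rose less, by 0.51, and Tug1 fell by 0.22. Xist, which coats the inactive X chromosome, was at 197, 79.8 and 132 CPM in IgG and 35.2, 38.7 and 41.0 CPM in input, above the input in each library but with IgG values that differed by more than the whole input range.

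**Figure D3:**
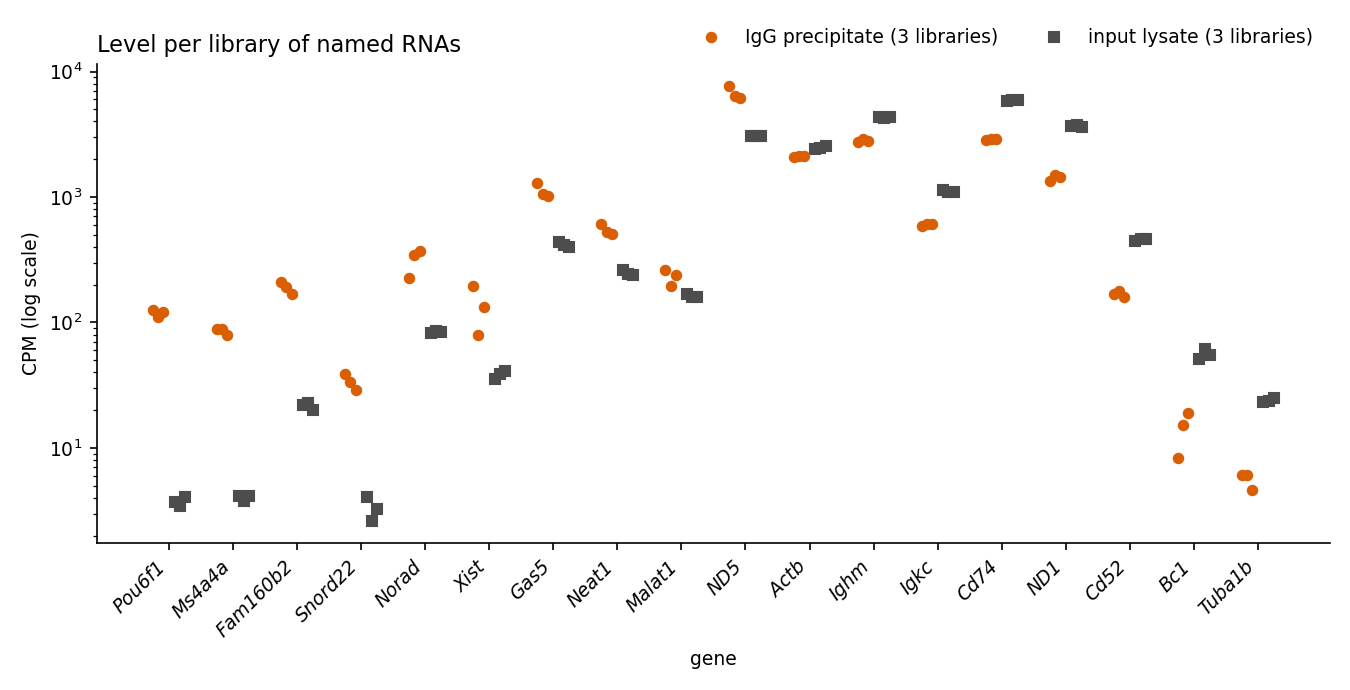
CPM in each IgG library (orange circles, A to C from left to right) and each input library (grey squares) for 18 named RNAs, on a log axis. Pou6f1 and Ms4a4a lie above 80 CPM in IgG and below 5 CPM in input, and Tuba1b and Bc1 lie lower in IgG.

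A few protein-coding genes rose far more than the median of their class, which was 0.0053. Pou6f1, a POU domain transcription factor gene (chr15:100575318-100600061, minus strand), was at 127, 110 and 122 CPM in IgG and 3.74, 3.46 and 4.04 CPM in input, 31.9-fold higher (log2 fold change 5.00, SE 0.09, edgeR adjusted P = 1.07e-11). Ms4a4a, a membrane protein gene best known from macrophages (chr19:11375488-11392915, plus strand), was at 88.9, 88.7 and 80.0 CPM in IgG and 4.14, 3.76 and 4.14 CPM in input, 21.3-fold higher. The other macrophage and monocyte markers did not move with it: Adgre1 and Cd68 fell by 0.45 and 0.44, Ms4a7 was at 0.767 CPM in IgG and 1.36 CPM in input, and Lyz2, Cd14 and Csf1r were below 0.3 CPM in IgG. Fam160b2 was at 212, 190 and 168 CPM in IgG and 22.1, 23.0 and 20.2 CPM in input. In each of these 3 genes the groups did not overlap.

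Zfp420, a zinc finger gene, had a log2 fold change of 2.97, and Pax5, the transcription factor that maintains B cell identity, had 2.17. Pax5 was at 267, 239 and 268 CPM in IgG and 55.8, 56.9 and 59.1 CPM in input. Of the other B cell markers, Ebf1 and Cd22 were at 0.0045 and 0.0078 and did not pass, and Cd79b and Blnk fell by 0.56 and 0.34. A930013F10Rik and Arhgap27os3, both lncRNAs, had 3.08 and 2.52. Among the 12 highest genes of at least 10 CPM, 3 gene IDs had no name in the annotations used.

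mRNAs of the translation and respiratory machinery were lower in the IgG precipitate. Of 82 cytosolic ribosomal protein genes tested, 71 were lower and 3 higher, with a median of -0.44, against 23.9% of all genes lower. They took 5.39% ± 0.23 of IgG counts and 6.99% ± 0.03 of input counts (SD, n = 3). Rpl36 and Rpl13 fell by 1.10 and 1.09, while Rpl14, Rps3 and Rps14 rose by 0.26, 0.20 and 0.15. Of 74 nuclear-encoded genes of oxidative phosphorylation, 61 were lower and 2 higher, with a median of -0.44. ATP synthase subunit genes Atp5g2, Atp5d and Atp5e fell by 1.17, 1.14 and 1.02, and Ndufs1, a large subunit of complex I, rose by 0.45. Of 76 mitochondrial ribosomal protein genes, 52 were lower and 2 higher, with a median of -0.28. Proteasome subunits (21 of 37 lower, 3 higher, median -0.18) and translation factors (31 of 52 lower, 6 higher, median -0.20) shifted less, and within the translation factors Eif4a2, the RNA helicase of cap-dependent initiation and host of snoRNAs, rose by 1.12, Eif3a by 0.84 and Eif5b by 0.64, while Eif3f and Eif1 fell by 0.78 and 0.73. Ribosomal protein genes have many near-identical pseudogenes, and how reads that fit several copies were counted is not given in the sources used here.

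Messages of the B cell surface and secretory pathway were also lower. Of 20 MHC class II and B cell surface genes, 14 were lower and 3 higher, with a median of -0.33. Cd74, the invariant chain of MHC class II, was at 2864, 2923 and 2893 CPM in IgG and 5845, 5938 and 5918 CPM in input (log2 fold change -1.03, SE 0.02, edgeR adjusted P = 5.87e-11). Cd79a and Ms4a1 both fell by 0.83. Cd52, a short glycosylphosphatidylinositol-anchored surface peptide, was at 170, 179 and 158 CPM in IgG and 448, 467 and 460 CPM in input, 2.71-fold lower. Among ER chaperones and foldases 16 of 27 were lower and 3 higher, beside 23.9% and 25% of all genes, with a median of -0.14, and the translocon subunits Sec61g and Sec61b fell by 1.15 and 0.71, while Ssr1 and Creld2 rose by 0.18 and 0.19.

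Immunoglobulin V segments had the lowest median of the classes examined beside mitochondrial rRNA. Of 166 tested V segments, 126 were lower and 0 higher, against 23.9% of all genes lower, and 79 were lower by a log2 change of 1 or more, against 1.28% of all genes. The median was -1.24 for 83 Igkv segments and -0.84 for 80 Ighv segments. Igkv1-135 and Igkv10-96 fell by 1.41 and 1.39. Constant regions, counted together with Jchain, which encodes the joining chain of polymeric antibodies, had 9 of 13 lower and 0 higher and a median of -0.52. Igkc was at 591, 608 and 613 CPM in IgG and 1134, 1106 and 1104 CPM in input, a log2 fold change of -0.88, and Ighm, the constant region of the mu heavy chain, fell by 0.63, while Ighg1 fell by 0.14. Of J segments, which lie between the V segments and the constant regions, 3 of 9 were higher and 0 lower, a share higher that is near the 25% of all genes, and a median of 0.59, with Ighj4 between 4.30 and 5.50 CPM in IgG and 2.65, 2.37 and 2.58 CPM in input. V segments of a family share sequence, so that the value of any segment alone is uncertain.

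Mitochondrially encoded RNAs changed in both directions. Of 12 mRNAs tested, 8 were lower and 3 higher, a share higher equal to the 25% of all genes and a share lower above their 23.9%, and both ribosomal RNAs, mt-Rnr1 and mt-Rnr2, were lower, at -1.16 and -1.18. ND1 was at 1351, 1504 and 1451 CPM in IgG and 3661, 3756 and 3589 CPM in input, and CYTB fell by 1.04 and COX1 by 0.65. ND5 went the other way, with 7687, 6331 and 6131 CPM in IgG and 3078, 3041 and 3091 CPM in input, as did ND6 with 2814, 2296 and 2168 CPM in IgG and 971, 953 and 944 CPM in input. ND5 and ND6 encode subunits of complex I and their annotated ends overlap on opposite strands, and whether the counting used strand is not stated for these libraries. The 13 mRNAs together took 2.14% ± 0.09 of IgG counts and 2.51% ± 0.03 of input counts (SD, n = 3). With 3 libraries against 3, an exact permutation test of any such share cannot give a two-sided p below 0.1.

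Zinc finger genes named Zfp with a number were shifted slightly upward, with 105 of 337 higher, 30 lower and a median of 0.14, against 25% and 23.9% of all genes. Of 10 factors of nonsense-mediated decay, the pathway that UPF1 serves, 5 were higher and 0 lower: Upf3b, Upf2 and Smg1 were among them, each at 0.43. Most of these factors have long coding sequences, and the 7 in the longest of 5 bins by coding length had a median of 0.12, below the 0.19 of the other genes of that bin. Upf1 itself was at 130, 122 and 129 CPM in IgG and 121, 119 and 122 CPM in input, and its groups overlapped (log2 fold change 0.07, edgeR adjusted P = 0.175). Of 26 immediate early and unstable mRNAs, 8 were higher and 2 lower, which is 7.69% lower against 23.9% of all genes, with a median of 0.07. The 6 and 14 of them in the shortest and the next bin of coding length had medians of 0.16 and 0.05, and the other genes of these bins -0.20 and -0.08. Btg2, an antiproliferative gene, stood out at 1.34, and Myc was at -0.01. Of 62 replication-dependent histone genes, whose mRNAs lack a polyA tail, 9 were tested and 0 passed in either direction by edgeR. Of 15 abundant housekeeping mRNAs, 11 were lower, 1 was higher and 3 did not pass, among them Pkm at 0.015. Actb fell by 0.23 and Eef1a1 by 0.19, Ppia by 0.84 and B2m by 1.09, whereas Gapdh was at 16.7 CPM in IgG and 8.69 CPM in input and rose by 0.93. Tuba1b was at 6.04, 6.04 and 4.63 CPM in IgG and 23.1, 23.6 and 25.1 CPM in input, 4.29-fold lower, but Tuba1b and Gapdh have near-identical copies in the genome and their values are uncertain.

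Protein-coding genes with longer coding sequences were higher in the IgG precipitate. In 5 bins of near-equal size by coding length, with medians of 555, 981, 1404, 2010 and 3501 bases, the median log2 fold change was -0.20, -0.08, 0.0022, 0.09 and 0.19. In the shortest bin 44.0% of 2323 genes were lower and 10.5% higher, and in the longest bin 9.20% of 2315 were lower and 45.1% higher. Across 11579 genes, which are not independent replicates, Spearman's rho with the log2 fold change was 0.37 for coding length, 0.18 for 3' UTR length, -0.11 for GC content and -0.00022 for mean CPM. Several of the classes above hold mostly short genes, so their medians were set beside genes of the same bin, without a test. The 71 ribosomal protein genes in the shortest bin had a median of -0.47 against -0.19 for the other 2252 genes of that bin, 57 genes of oxidative phosphorylation had -0.47 against -0.20, and 14 MHC class II and B cell surface genes of the next bin had -0.35 against -0.08. From the shortest bin upward, translation factors were at -0.18, -0.36, -0.19, -0.22 and 0.021, and the other genes of these bins at -0.20, -0.08, 0.0030, 0.09 and 0.19, so that they were lower in each bin but the shortest. Proteasome subunits were at -0.28, -0.26 and -0.10 in the 3 shortest bins, and the other genes at -0.20, -0.08 and 0.0025.

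**Figure D4:**
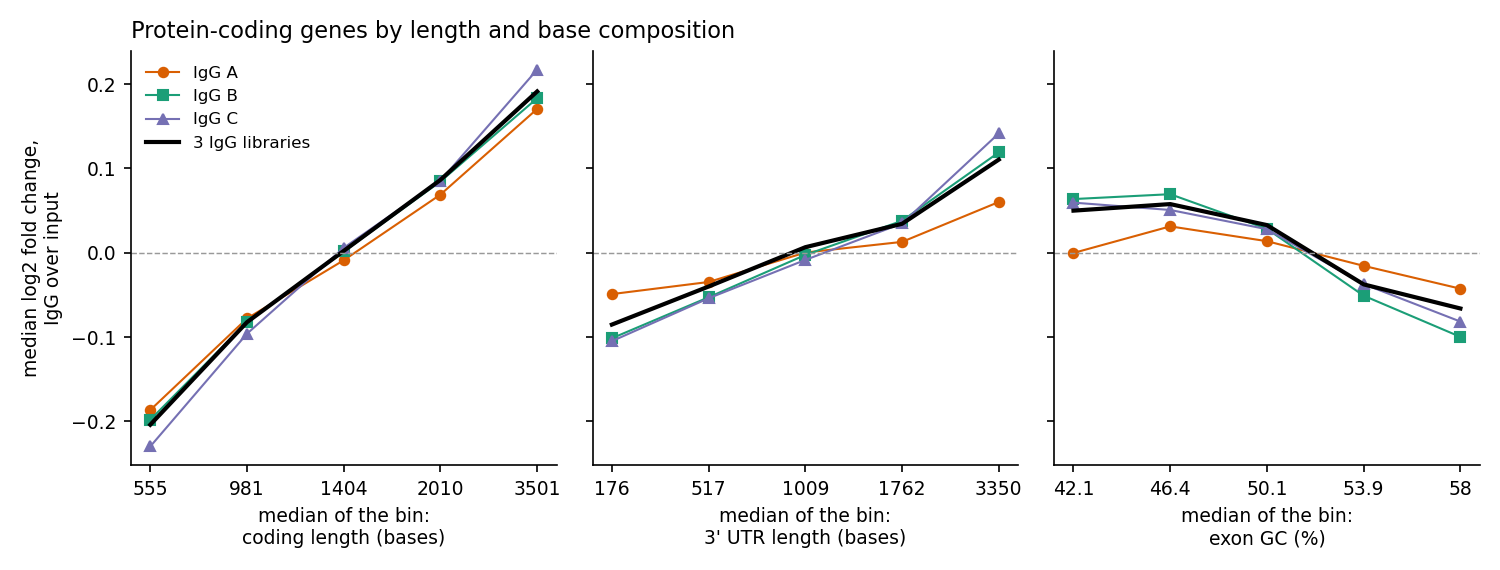
Median log2 fold change of IgG over input in 5 bins of protein-coding genes by coding length, 3' UTR length and exon GC content, with the median of each bin on the horizontal axis. The black line is the fit over the 3 IgG libraries and coloured lines are single IgG libraries; coding length runs from -0.20 to 0.19, and IgG A is flatter than B and C over 3' UTR length.

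The IgG libraries varied more among themselves than the input libraries did. The median SD of log2 CPM over genes was 0.12 in IgG and 0.05 in input, a ratio of 2.24, and 10535 of 12700 genes had the larger SD in IgG. The ratio lay between 2.02 and 2.69 in each of 8 bins of expression, and it was 2.05 after all libraries were thinned to the smallest total. The common biological coefficient of variation was 8.92% in IgG and 1.73% in input. Pearson correlations between replicate libraries were 0.984 to 0.988 in IgG and 0.997 in each input pair. As a check for a library deposited more than once, the chi-square per degree of freedom between libraries of a group was 1.38 to 1.73 in input and 4.64 to 9.94 in IgG, and each library was counted on its own.

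**Figure D5:**
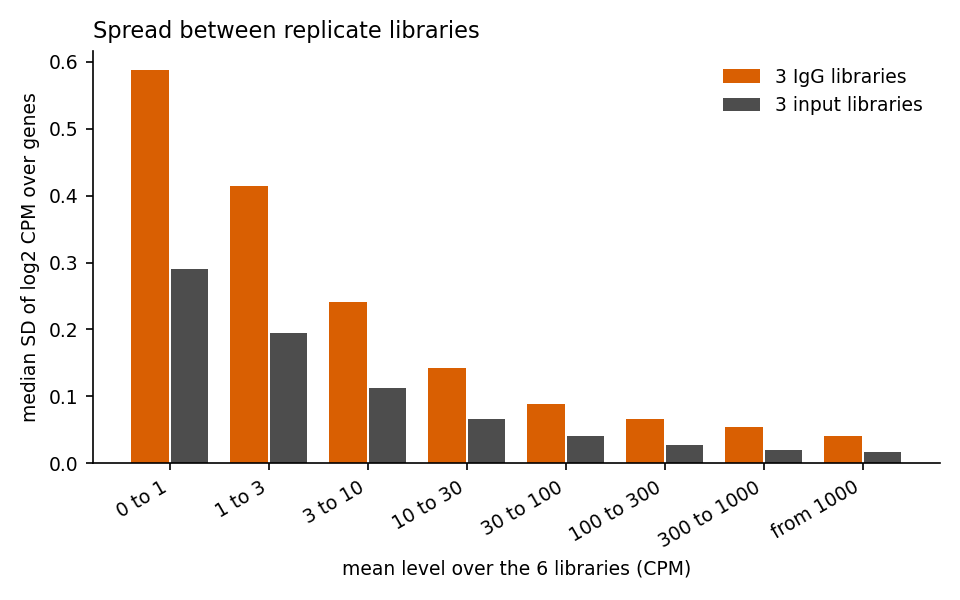
Median SD of log2 CPM over genes between the 3 IgG libraries (orange) and the 3 input libraries (grey), in bins of mean CPM. In each of the 8 bins the IgG bar is the taller, by 2.02 to 2.69 times.

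IgG A was the library least like the other IgG libraries. Over 8916 genes of at least 10 CPM, the log2 ratio to the mean input correlated at 0.92 between B and C but at 0.88 between A and either, a description over genes that share the same input. Without IgG A the ratio of the spreads was 1.53, with an SD from 2 libraries. snoRNAs were highest in IgG A in 47 of 64 cases, lncRNA hosts of snoRNAs in 14 of 16 and cytosolic ribosomal protein genes in 71 of 82, against 4669 of all 12700 genes. The median difference of A from the mean of B and C was 0.47 for snoRNAs and -0.0010 for all genes, and Spearman's rho of that difference was -0.23 with 3' UTR length and 0.22 with GC content. The 16 classes that were followed kept their direction without A. The median above or below that of all genes went from 2.02 to 1.86 for snoRNAs, from 0.53 to 0.37 for lncRNA hosts, from -0.44 to -0.48 for cytosolic ribosomal protein genes and was -1.01 for V segments, and the number of genes higher and lower was 3514 and 3429. The genes of at least 10 CPM with the largest SD between IgG libraries included Xist, Bc1, Lcor and Hbb-b1. Lcor, a nuclear receptor corepressor gene, was at 9.28, 15.2 and 19.6 CPM in IgG and 7.99, 7.62 and 7.88 CPM in input. The order of the IgG libraries was not the same in these genes, as Xist was highest in A and Bc1 and Lcor were lowest in A.

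The p-UPF1 precipitate was taken from the same cells with another antibody. Each comparison is read against the same 3 input libraries, so the values are set side by side without a correlation. In a fit of all 9 libraries the median log2 fold change over input of snoRNAs was 1.83 in IgG and 0.41 in p-UPF1, that of cytosolic ribosomal protein genes was -0.55 and -3.39, and that of mitochondrially encoded mRNAs was -0.72 and -5.35. Mitochondrial mRNAs made up 2.14% of IgG counts, 2.51% of input counts and 0.0740% of p-UPF1 counts. Ms4a4a had a mean of 86.1 CPM with IgG and of 1.55 CPM with the p-UPF1 antibody, and Pax5 had means of 259 CPM and 173 CPM, beside 57.1 CPM in input.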

How the data were processed

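Polyadenylated RNA of 9 libraries was sequenced by the authors. They trimmed reads with cutadapt, aligned them to mm10 with HISAT2 and counted them per gene with featureCounts. These steps are from the labels, and the methods for these libraries name neither polyA selection nor cutadapt. Versions, multi-mapping and strand settings for these libraries are not given in the sources used here. The deposited values are raw counts per gene for 27179 Entrez gene IDs. Columns carry a group and a letter, and the labels a number, so a column was tied to a group and to no numbered sample. RefSeq GRCm38 named 25275 IDs and GENCODE M21 another 18; the 1886 unnamed IDs held 0.437% of counts.

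The 3 IgG and 3 input libraries were fitted with edgeR 4.0.16 (R 4.3.3): genes passing filterByExpr (minimum count 10, minimum total 15) were kept, TMM factors were applied, and IgG over input was tested with glmQLFit and glmQLFTest (4 residual degrees of freedom, prior count 0.125, Benjamini-Hochberg adjustment over 12700 genes). The fit was checked on simulated counts. Calls were made at an adjusted P under 0.05. Log2 CPM for SDs used a prior count of 2. Total counts per library, from 17372510 to 24945286, set the precision, and counts without molecular identifiers are not independent molecules. DESeq2 1.42.0 and limma-voom (limma 3.58.1) were among the alternatives, with other scalings, filters and left-out libraries.

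Classes came from RefSeq biotypes and from gene lists; genes named are the 12 highest and 12 lowest of at least 10 CPM that passed the test with groups that do not overlap, the 5 most variable in IgG, for each class the most abundant, the 2 highest and the 2 lowest, fixed genes and list members. Pax5, Rn7sk, Rpph1 and several low-count snoRNAs were named after their values were seen, and a few genes that the rule names are not reported here. The members and lists were chosen with earlier results of these data known.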

Additional observations from a re-analysis of the deposited data

How the results depend on the processing

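No paired analysis was possible because the columns carry letters and the labels carry numbers, so no shared number ties an IgG library to an input library. The counts of genes higher and lower stayed within 1.5 times of 3178 and 3040 under each alternative, with 2353 to 3514 higher and 2235 to 4560 lower. Past a log2 change of 1, glmTreat, which tests against that minimum, called 80 higher and 13 lower, and the fit of all 9 libraries called 284 lower. Leaving out 1 library gave 2483 to 3514 higher, 2392 to 3429 lower, and 257 to 364 and 133 to 233 past the fold minimum.

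Class medians are given here less the median of all genes. None of the 16 classes followed changed sign. For snoRNAs the median of 2.02 became 1.61 without a filter, 2.25 with at least 1 CPM in 3 libraries and 2.77 at a mean of at least 10 CPM, which leaves few of them. Without a filter, mitochondrial ribosomal protein genes were at -0.23, zinc finger genes at 0.19, proteasome subunits at -0.15, translation factors at -0.15, immediate early mRNAs at 0.12 and microRNA genes at 0.0023. Leaving out genes whose exons overlap another gene gave -0.69 for immunoglobulin constant and J chain genes, -1.04 for mitochondrial mRNAs, -0.32 for mitochondrial ribosomal protein genes, 1.43 for microRNA genes, -0.18 for translation factors and 0.21 for factors of nonsense-mediated decay. At a mean of at least 10 CPM, nuclear and regulatory lncRNAs were at 0.82 and microRNA genes at 0.078, and over the genes that pass in input alone, an alternative chosen after seeing the data, microRNA genes were at 0.049. The causes were not tested. Leaving out 1 library in turn gave -0.62 to -0.45 for immunoglobulin constant and J chain genes, -0.31 to -0.28 for mitochondrial ribosomal protein genes, 0.10 to 0.16 for zinc finger genes and 0.27 to 0.61 for microRNA genes.

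Of 102 named genes that passed the test, 95 passed it in the same direction under each alternative run. Upf1, which did not pass, was at -0.034 in the fit of all 9 libraries. The spread ratio was 1.53 to 2.75 when 1 library was left out, also chosen after seeing the data.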

Other observations

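Of 30 tested cell type markers, 7 were higher and 12 lower in the IgG precipitate, beside 25% and 23.9% of all genes. Of 6 markers of activated B cells, Cd83 rose by 0.10, and Cd86 and Fas fell by 0.36 and 0.31. Of 5 plasma cell markers, 4 were tested: Prdm1, which drives plasma cell differentiation, rose by 0.53, and Sdc1, Jchain and Xbp1 fell by 0.62, 0.69 and 0.20. The 7 T cell markers summed to 99.2 to 104 CPM in IgG and 97.6 to 101 CPM in input, nearly all of it Lck, at 101 and 97.8 CPM. The 3 NK cell markers summed to at most 0.453 CPM in any of the 6 libraries and the 5 neutrophil markers to at most 0.148 CPM. Protein-coding genes of the nuclear genome with 1 exon, 213 of which were tested, had a median of -0.05, with 29 higher and 43 lower.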
